A study of Arabidopsis thaliana with 18 samples.

Results

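Rosettes of the line amiRAP2.2-12 were compared with wild type rosettes after the same treatment with low oxygen. The comparison uses 6 of the 18 arrays of the series, those titled as hypoxic for these genotypes, 3 for each. Both groups were 5-week-old Arabidopsis thaliana plants of the ecotype Columbia 0, held in darkness at 22 °C for 1.5 h in 1% oxygen, which is called hypoxia here. The line carries 35S::amiRAP2.2-12, in which the 35S promoter, active in most plant tissues, drives an artificial microRNA named after RAP2.2 and RAP2.12. The wild type carries no transgene. The other groups used here are the same genotypes kept in the dark at 21% oxygen for the same time (called air) and the line 35S::HA::RAP2.12 (HA-RAP2.12), which carries an HA-tagged RAP2.12 behind the same promoter. Neither the number of independent transgenic lines nor whether the replicates were separate plants is given in the sources used here.

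RAP2.2 and RAP2.12 belong to group VII of the ethylene response factors, transcription factors that are degraded through the N-degron pathway when oxygen is present and are stable when it is scarce. Under low oxygen they are known to switch on a core set of genes, among them those of ethanol fermentation, which lets glycolysis continue without respiration. An artificial microRNA guides the cleavage of transcripts that match it, so the line addresses what the response to low oxygen looks like when these factors are reduced. The levels of RAP2.2, RAP2.12 and the other group VII factors were not analysed here, so the reduction of the targets was not checked. The annotation used named none of these 5 loci as the single gene of a probe set.

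Levels are GCRMA values on the log2 scale, on which a difference of 1 is a 2-fold difference. The lowest value on any array was 2.11, and a group with a mean under 2.5 is called at the floor. Differences are amiRAP2.2-12 minus wild type, with the standard error (SE) and the adjusted p of a limma fit to all 18 arrays, and a probe set was called at an adjusted p under 0.05. Levels of a transcript in a whole rosette do not separate fewer cells of a type from less RNA in each cell, which cannot be told apart here. Leaf genes were bright on all 6 arrays, as with SBPASE, a Calvin cycle enzyme, at 13.09 ± 0.06 in wild type and 13.36 ± 0.11 in amiRAP2.2-12 (SD, n = 3 each). Of 2 root markers, AT4G11290 stood at the floor. The other, the beta-glucosidase gene PYK10, stood at 8.74, 8.68 and 8.55 in wild type and at 8.21, 3.85 and 6.76 in amiRAP2.2-12 (adjusted p = 0.274).

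The 3 amiRAP2.2-12 hypoxia arrays were far less alike than the 3 wild type ones. Among 10988 probe sets with a mean above log2 6, the wild type arrays each held 10 to 14 that lay at least 2-fold from the mean of the other arrays of the group. The amiRAP2.2-12 arrays held 421, 912 and 105 of them for replicates 1, 2 and 3. Replicate 2 also stood apart from all 17 other arrays on the second principal component, at -47.4 against a range of -13.9 to 19.8. Its cytosolic ribosomal protein genes, 6 measured, lay at a median of 0.77 below the wild type mean, while those of replicates 1 and 3 lay 0.19 and 0.20 above it. Replicate 1 held low-oxygen genes at nearly wild type levels, as described next.

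Of 22746 probe sets tested, 323 were called (1.42%), with 138 higher (0.607%) and 185 lower (0.813%) in amiRAP2.2-12. At least 2-fold differences were found in 106 of them (0.466%), 40 higher and 66 lower. The median size of the difference was 0.758 over the called probe sets and 0.0779 over all. Of the 185 lower, 47 (25.4%) belonged to the 792 probe sets that hypoxia raised at least 2-fold in the 6 HA-RAP2.12 arrays (3.48% of all), and 0 to the 648 that it lowered there (2.85% of all). Of the 138 higher, 47 (34.1%) belonged to the lowered set and 5 (3.62%) to the raised set. Of the single arrays of the line, leaving out hypoxia replicate 1 changed the count of 323 to 1021, and leaving out replicate 3 changed it to 136. It was 209, 149 and 105 without wild type hypoxia replicate 1, 2 or 3. Centring each array on the common median changed the share of calls that were higher from 42.7% to 53.2%. With only the 6 arrays compared in the fit, 10 probe sets were called, 1712 had an unadjusted p under 0.05, and the calls of all 27 called genes among those named by the rule in this account were lost.

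Genes known to be induced by low oxygen stood lower in amiRAP2.2-12 than in wild type on replicates 2 and 3 and close to wild type on replicate 1. Of 54 loci on the list, 26 were measured, that is, named as the single gene of a probe set. Hypoxia raised 26 of the 26 in wild type (11.5% of all probe sets were raised) and 22 in amiRAP2.2-12 (8.04% of all). Under hypoxia, 3 of 26 were lower in amiRAP2.2-12 past the threshold (11.5%, against 0.813% of all probe sets) and 0 were higher. For 16 of them (61.5%) all 3 arrays lay below all 3 of wild type, against 6.59% of all probe sets. The fitted difference was negative for 25 and positive for 1, with a median of -1.35 against 0 over all probe sets, and in air the median was -0.07. The 3 calls were lost without any single wild type hypoxia array and without amiRAP2.2-12 hypoxia replicate 2 or 3 (0 called in each case), and 1 was left without wild type air replicate 2. Without amiRAP2.2-12 hypoxia replicate 1 the count was 19 lower and 1 higher.

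The 3 called genes were AT5G26200, PDC2 and AT1G74940. AT5G26200, of the mitochondrial carrier family, stood at 10.11, 10.27 and 10.07 in wild type and at 9.27, 6.47 and 6.89 in amiRAP2.2-12, a difference of -2.61 (SE 0.54, adjusted p = 0.0362). All 3 arrays of the line were below wild type, with replicate 1 nearest to it. PDC2, a pyruvate decarboxylase that carries out the first step of ethanol fermentation, stood at 11.98, 11.79 and 12.08 in wild type and at 11.40, 10.02 and 9.97 in amiRAP2.2-12 (-1.49, SE 0.30, adjusted p = 0.0318). Replicates 2 and 3 lay close to the wild type air level of 9.78, whereas replicate 1 was still well above it. The line's own air level was lower, at 9.31. Hypoxia raised PDC2 in the line by 1.16 (SE 0.30, adjusted p = 0.0184). AT1G74940, of a zinc finger family, stood at 11.39, 11.32 and 11.46 in wild type and at 10.94, 10.16 and 10.03 in the line (-1.01, SE 0.19, adjusted p = 0.0222), again without overlap.

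Other low-oxygen genes with wide differences did not pass the threshold. AT5G10040 stood at 9.98, 9.98 and 9.84 in wild type and at 9.66, 3.10 and 5.30 in amiRAP2.2-12 (-3.91, SE 1.10, adjusted p = 0.113). Its replicate 2 lay close to the wild type air level, which was at the floor, while replicate 1 was near wild type under hypoxia. AT2G17850, of the rhodanese family, stood at 11.02, 11.10 and 10.76 in wild type and at 10.99, 6.63 and 7.45 in the line (-2.61, SE 0.81, adjusted p = 0.160), so that replicate 1 fell inside the wild type range. AT1G19530 read 10.95, 10.97 and 10.96 in wild type and 11.17, 5.94 and 8.79 in the line. Its replicate 1 was above every wild type array and its replicate 2 was below the wild type level in air of 7.05. AT5G66985 read 9.82, 9.81 and 9.69 in wild type and 9.31, 5.88 and 6.86 in the line (-2.42, SE 0.58, adjusted p = 0.0661), with no overlap.

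In well known regulators and markers of the response, replicate 1 was again nearest to wild type. HRA1 (AT3G10040), a transcription factor that restrains RAP2.12, stood at 11.97, 12.04 and 11.64 in wild type and at 11.61, 10.34 and 9.82 in amiRAP2.2-12 (-1.30, SE 0.33, adjusted p = 0.0799). Its 3 arrays lay below wild type, replicate 1 only just. AT4G10270, of the wound-responsive family, read 13.95, 14.08 and 13.98 in wild type and 13.81, 12.76 and 12.55 in the line (-0.96, SE 0.37, adjusted p = 0.282). CML38, a calmodulin-like calcium sensor, read 12.19, 12.27 and 12.42 in wild type and 11.87, 10.78 and 10.47 in the line (-1.26, SE 0.34, adjusted p = 0.0996). Both had no overlap between the groups. Without amiRAP2.2-12 hypoxia replicate 1, HRA1 was called at -1.81 (adjusted p = 0.000214) and CML38 at -1.67 (adjusted p = 0.00682). As that array was the nearest to wild type, leaving it out could only widen these differences. Over 26 alternatives HRA1 ran from -1.86 to -0.91 and CML38 from -1.67 to -0.97, with a call under 3 for each.

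Some members of the list differed little. AT3G10020 differed by -0.13 (SE 0.09, adjusted p = 0.611) and AT1G33055 by -0.42 (SE 0.24, adjusted p = 0.537), the latter from 13.35, 13.34 and 13.47 in wild type against 13.42, 12.84 and 12.64. The gene with a positive difference, AT5G27760 of the hypoxia-responsive family, stood at 11.75, 11.84 and 11.73 in wild type and at 11.81, 12.53 and 12.17 in amiRAP2.2-12 (0.39, SE 0.14, adjusted p = 0.242). Here replicate 1 lay among the wild type arrays and replicates 2 and 3 lay above them. The remaining members had differences between -2.31 for AT3G23170 and -0.61 for AT4G27450, with adjusted p from 0.0554 to 0.539.

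**Figure D1:**
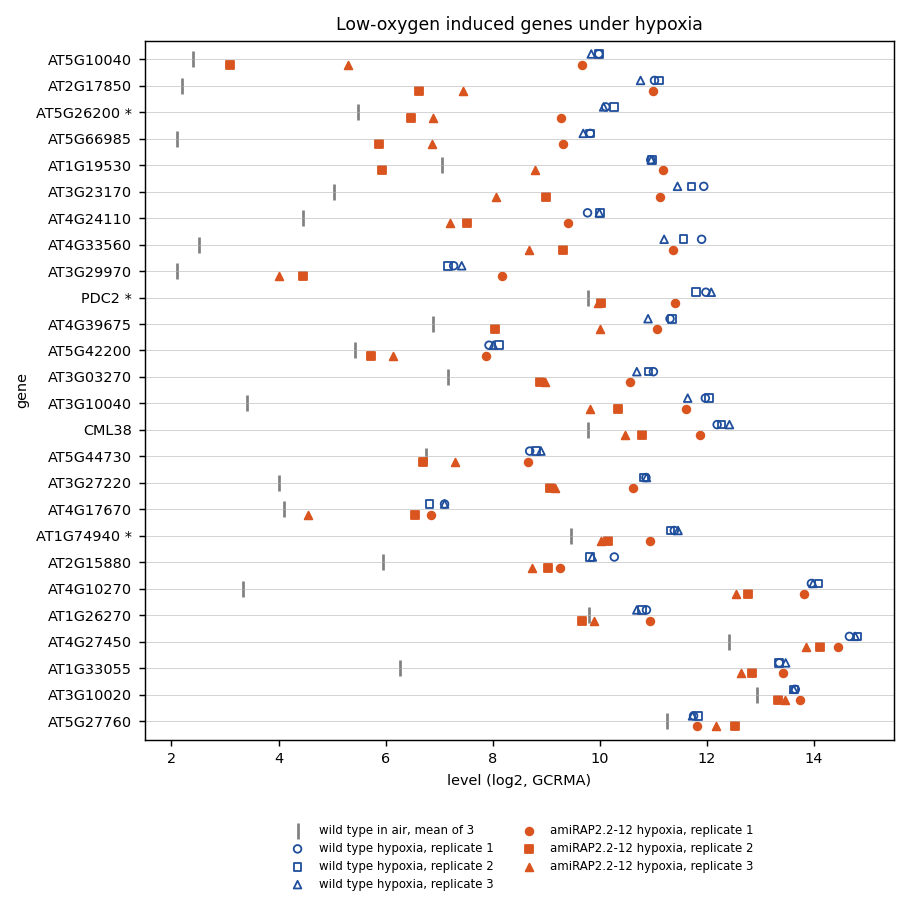
Level of the 26 measured low-oxygen genes (log2, GCRMA) on each hypoxia array, wild type as open blue symbols and amiRAP2.2-12 as filled orange ones, with the wild type mean in air as a grey bar and the 3 called genes marked by a star. Replicate 1 of the line (circles) sits near wild type, and replicates 2 and 3 (squares and triangles) lie lower for 25 of 26 genes.

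Taken array by array, the low-oxygen genes lay at a median of -0.22, -1.96 and -1.89 from the wild type hypoxia mean on replicates 1, 2 and 3. Replicate 1 was the nearest to wild type for 26 of 26 genes, against 42.0% of the 10988 brighter probe sets. At least 2-fold below wild type were 0 genes on replicate 1, 20 on replicate 2 and 21 on replicate 3. Set against wild type in air, 24 of 26 were at least 2-fold higher on replicate 1 and 17 each on replicates 2 and 3. The median SD of these genes was 0.973 in the line and 0.107 in wild type, while over all probe sets it was 0.135 and 0.0736. Over the brighter probe sets, too, replicate 1 was the nearest most often, for 4611, against 2646 for replicate 2 and 3731 for replicate 3.

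Fermentation and glycolysis beyond PDC2 showed smaller differences. Of 4 measured fermentation and sucrose breakdown genes, PDC2 was the 1 called, beside 0.813% of all probe sets called lower. The difference was negative for 3 of the 4. For the other it was 0.21, with all 3 arrays of the line above wild type. AT4G17260, a lactate dehydrogenase, stood at 8.59, 8.75 and 9.13 in wild type and at 8.33, 7.85 and 8.06 in amiRAP2.2-12 (-0.75, SE 0.21, adjusted p = 0.116), without overlap. GAPC2, a cytosolic glyceraldehyde-3-phosphate dehydrogenase, was at 13.94, 14.04 and 14.01 in wild type and at 13.84, 13.46 and 13.67 in the line (-0.34, SE 0.08, adjusted p = 0.0555), also without overlap. PPDK, pyruvate orthophosphate dikinase, and TPI, triosephosphate isomerase, differed by -0.05 (SE 0.25) and -0.07 (SE 0.10). Alcohol dehydrogenase and sucrose synthase were not analysed here.

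The 12 largest falls among named genes were all in genes that hypoxia raised in wild type, a count that shares the wild type hypoxia arrays with the falls. Of the 12, 4 belonged to the set raised in HA-RAP2.12. The largest was in OSM34, an osmotin-like protein of the pathogenesis-related PR-5 family, at 8.00, 8.21 and 8.24 in wild type and at 3.78, 2.48 and 2.31 in amiRAP2.2-12. The difference was -5.29 (SE 0.72, adjusted p = 0.00481), and every array of the line lay more than 4 log2 units under wild type. OSM34 was already low in the line in air, at 2.68 ± 0.61 against 5.81 ± 0.49 (SD, n = 3 each; adjusted p = 0.187). Between air and hypoxia it changed by 2.34 (SE 0.72) in wild type and by 0.18 in the line.

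A few genes came on in wild type hypoxia and stayed at or near the floor in the line. AT5G24240, of the phosphatidylinositol 4-kinase gamma family, stood at 5.21, 4.05 and 5.27 in wild type and at 2.11 on all 3 arrays of amiRAP2.2-12 (-2.74, SE 0.23, adjusted p = 0.000219). It read 2.11 on every array of every other group too. The SD was therefore 0 in all groups but wild type hypoxia (0.69), and the shared SE and the adjusted p rest largely on floor values. AT1G26390, a berberine bridge enzyme-like gene, stood at 5.26, 5.39 and 4.35 in wild type and at 2.32, 2.5 and 2.32 in the line (-2.62, SE 0.30, adjusted p = 0.00144). AT5G59130, a subtilase, stood at 4.48, 4.31 and 4.55 against 2.34, 2.97 and 2.37 (-1.88, SE 0.32, adjusted p = 0.0160), and AT5G16980, of the zinc-binding dehydrogenase family, at 4.57, 4.37 and 5.17 against 2.63, 2.54 and 3.59. In total 18 lower calls had an amiRAP2.2-12 mean at the floor, where the size, SE and adjusted p of a difference depend on how the background was removed.

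The falls also held brighter genes, which the rule required to be lower on each of the 3 arrays. AT4G28140, an AP2/ERF transcription factor, stood at 8.90, 8.85 and 8.75 in wild type and at 7.18, 6.30 and 6.98 in amiRAP2.2-12 (-2.01, SE 0.30, adjusted p = 0.00778), from a wild type air mean of 2.38. AT1G78070, a WD40 repeat protein, stood at 9.85, 10.02 and 9.94 against 8.57, 8.61 and 7.84 (-1.60, SE 0.24, adjusted p = 0.00852). PUB19, a U-box E3 ubiquitin ligase linked to abscisic acid and drought, read 8.43, 8.08 and 7.88 in wild type and 6.22, 6.17 and 5.94 in the line (-2.02, SE 0.44, adjusted p = 0.0450). In these 3 genes replicate 1 was not set apart: all 3 arrays of the line were more than 1 log2 unit below the lowest wild type array. In AT2G37750 (-2.25, SE 0.37, adjusted p = 0.0136) and in JAL22, a jacalin lectin (-2.14, SE 0.40, adjusted p = 0.0244), it was nearer to wild type. JAL22 read 7.36, 7.26 and 7.35 in wild type and 6.09, 4.45 and 5.00 in the line.

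Of these 12 falls, OSM34, AT5G24240, AT1G26390, AT4G28140, AT5G16980 and AT1G78070 lost their call only when the 6 arrays were fitted alone. AT2G37750 and AT5G59130 lost it also without wild type hypoxia replicate 3 (adjusted p = 0.0556 and 0.0652) or amiRAP2.2-12 hypoxia replicate 3 (0.0524 and 0.0633). JAL22 lost it without any single wild type hypoxia array (0.0671 to 0.0857) or amiRAP2.2-12 hypoxia replicate 2 (0.0592) or 3 (0.0919). AT5G26200, PUB19 and AT1G53540 lost it under 13, 15 and 20 of 26 alternatives.

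**Figure D2:**
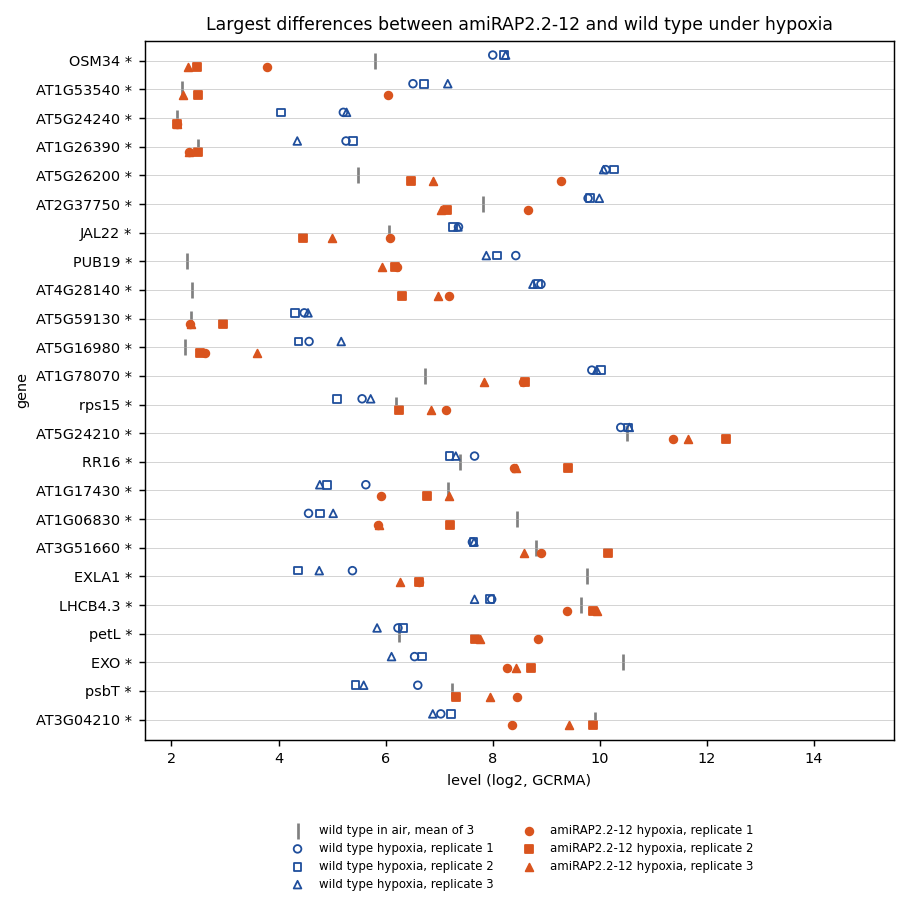
Levels (log2, GCRMA) of the 12 largest falls (upper rows) and 12 largest rises (lower rows) among called single-gene probe sets, with symbols as for the low-oxygen genes and the wild type mean in air as a grey bar. The groups do not overlap in any row, as the rule required, and for several rises the line lies between wild type under hypoxia and wild type in air.

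Heat shock genes, whose median response to hypoxia in wild type was 3.95, had values below all wild type arrays for 6 of 9 genes on each of replicates 2 and 3, and for 3 on replicate 1. Of 9 measured, 1 was called lower (0.813% of all probe sets were) and 0 higher (0.607% of all), the median difference was -1.47, and 2 were at the floor in both groups. The called gene was AT1G53540, a class I small heat shock protein, at 6.51, 6.71 and 7.16 in wild type and at 6.05, 2.5 and 2.21 in amiRAP2.2-12 (-3.21, SE 0.72, adjusted p = 0.0491). Replicates 2 and 3 were near the air level of 2.19, and replicate 1 was close to wild type but below it. AT2G29500, another small heat shock protein, read 9.59, 9.81 and 9.46 in wild type and 8.89, 2.96 and 4.76 in the line (-4.08, SE 1.06, adjusted p = 0.0893). Hop3, a co-chaperone, read 7.06, 7.49 and 7.51 in wild type and 7.23, 3.19 and 4.26 in the line, with replicate 1 inside the wild type range. The median over the 9 genes was 0, -2.73 and -1.40 for replicates 1, 2 and 3. Without replicate 1, its array nearest to wild type, AT2G29500 was called at -5.76 (adjusted p = 0.000173). Over 26 alternatives its difference ran from -5.76 to -2.79, with a call under 3.

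**Figure D3:**
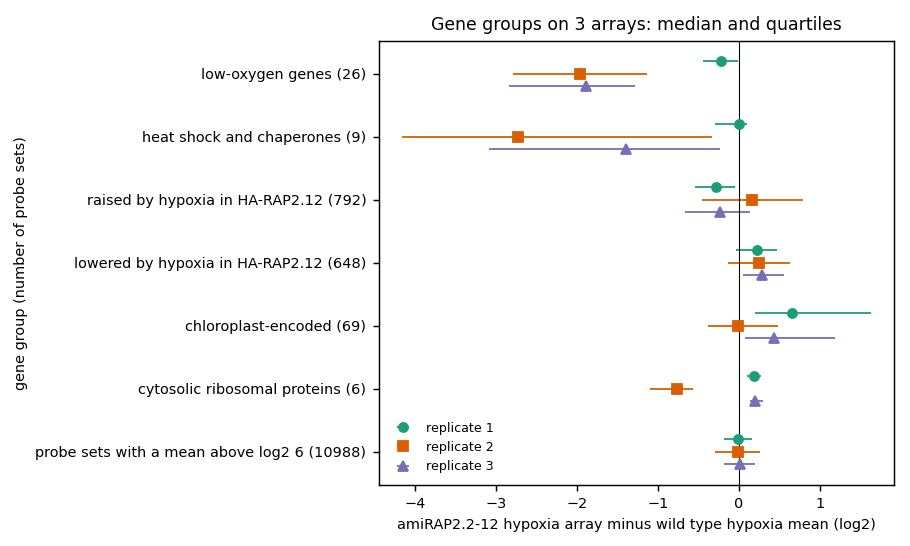
Median (symbol) and quartiles (line) of the difference of each amiRAP2.2-12 hypoxia array from the wild type hypoxia mean (log2) for 7 groups of probe sets, with the number of probe sets in brackets. Low-oxygen and heat shock genes are lowest on replicates 2 and 3, chloroplast-encoded genes are highest on replicate 1, and cytosolic ribosomal protein genes are low on replicate 2.

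Several of the genes that were higher in amiRAP2.2-12 were genes that hypoxia lowered in wild type. Of the 12 largest rises, 8 were lowered by hypoxia in wild type past the threshold (10.3% of all probe sets were). That count again shares the wild type hypoxia arrays with the rises, so the share over all probe sets is no reference for it. Of the 12, 3 belonged to the set lowered in HA-RAP2.12. AT3G04210, of the TIR-NBS family of immune receptor-like proteins, stood at 7.03, 7.22 and 6.88 in wild type and at 8.36, 9.87 and 9.43 in the line (2.18, SE 0.32, adjusted p = 0.00668). Its wild type level in air was 9.91, so that replicates 2 and 3 were near that level and replicate 1 between air and hypoxia. LHCB4.3, a light-harvesting protein, stood at 7.98, 7.95 and 7.66 in wild type and at 9.39, 9.87 and 9.95 in the line (1.88, SE 0.20, adjusted p = 0.000904), against 9.64 ± 0.04 (SD, n = 3) in wild type air. All 3 of its arrays were at or near the air level, where wild type had fallen by 1.78.

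Cell expansion genes were among them. EXO, linked to cell expansion and brassinosteroid responses, stood at 6.54, 6.68 and 6.11 in wild type and at 8.26, 8.71 and 8.44 in amiRAP2.2-12 (2.03, SE 0.37, adjusted p = 0.0224), both under the air level of 10.43. EXLA1, an expansin-like gene, stood at 5.38, 4.36 and 4.76 against 6.62, 6.63 and 6.26 (1.67, SE 0.29, adjusted p = 0.0181), also well under its air level of 9.76. These were the 2 genes called of 8 measured on the cell wall list, beside 0.607% of all probe sets called higher. The list's median was 0.35, and 2 others were at the floor. XTH18, a xyloglucan endotransglucosylase, read 3.42, 2.83 and 4.11 in wild type and 4.26, 6.64 and 4.67 in the line (1.74, SE 0.59, adjusted p = 0.206), with every array of the line above wild type.

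The other rises included AT1G06830, a glutaredoxin family gene lowered by hypoxia from 8.46 in wild type. It stood at 4.56, 4.78 and 5.02 under hypoxia in wild type and at 5.86, 7.20 and 5.87 in the line (1.52, SE 0.31, adjusted p = 0.0350). RR16, a type-A response regulator of cytokinin signalling, stood at 7.66, 7.19 and 7.31 against 8.40, 9.40 and 8.44 (1.36, SE 0.26, adjusted p = 0.0272). Unlike most of the rises it differed by 0.00 (SE 0.26) between air and hypoxia in wild type, and it rose by 1.09 in the line (adjusted p = 0.0128). AT3G51660, of the macrophage migration inhibitory factor family, read 7.62, 7.64 and 7.65 in wild type and 8.90, 10.15 and 8.59 in the line (1.58, SE 0.31, adjusted p = 0.0281). Replicate 2 was the highest array for RR16, AT3G51660 and AT1G06830. AT1G17430 (1.52, SE 0.31, adjusted p = 0.0350) and AT5G24210 (1.30, SE 0.28, adjusted p = 0.0439) were also higher, without overlap as the rule required.

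AT3G04210 and LHCB4.3 lost their calls only when the 6 arrays were fitted alone. Among single arrays left out, EXLA1 and RR16 lost them without wild type hypoxia replicate 2 (adjusted p = 0.0660 and 0.0947) or 3 (0.0721 and 0.0996), EXO and AT3G51660 without any single wild type hypoxia array (0.0516 to 0.0952), and EXO also without amiRAP2.2-12 hypoxia replicate 2 (0.0573) or 3 (0.0716). AT1G06830, AT1G17430 and AT5G24210 lost them under 10, 10 and 16 of 26 alternatives. Among nuclear photosynthesis genes outside LHCB4.3, SBPASE was higher by 0.28 (SE 0.05, adjusted p = 0.0278). It did not pass when any single wild type hypoxia array was left out (0.0516 to 0.114), nor without amiRAP2.2-12 hypoxia replicate 2 (0.0526), after centring (0.0518) or with dim probe sets filtered out (0.0695). RCA (Rubisco activase) and PRK (phosphoribulokinase) each differed by 0.12 and did not pass.

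Most transcripts of the chloroplast genome had higher values in the line, most of all on replicate 1, though few passed the threshold. Of 69 measured, 3 were higher past the threshold (4.35%, against 0.607% of all probe sets) and 0 lower. For 21 (30.4%) all 3 arrays lay above wild type, against 5.13% of all probe sets. The difference was positive for 54 and negative for 15, with a median of 0.36 and a range from -0.58 for rpl16 to 2.39 for petG. Across the arrays the median was 0.66, -0.01 and 0.43 for replicates 1, 2 and 3, and replicate 1 was the farthest from wild type for 47 of 69. The median level was 11.02, 10.11 and 10.56 on these arrays and 10.5, 9.79 and 10.18 on wild type hypoxia replicates 1, 2 and 3. The order of the replicates was thus the same in both genotypes. In air the median difference was 0.04. On the HA-RAP2.12 hypoxia arrays the median level was 10.73, 10.28 and 10.56, and 0 of 69 were called against the same wild type arrays. The genes called in amiRAP2.2-12 were higher there too without a call, psbT by 1.28, petL by 0.94 and rps15 by 0.93.

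Of the 3 called genes, psbT, a small subunit of photosystem II, stood at 6.60, 5.44 and 5.59 in wild type and at 8.46, 7.32 and 7.94 in amiRAP2.2-12 (2.03, SE 0.36, adjusted p = 0.0181). The gene petL, of the cytochrome b6f complex, stood at 6.23, 6.32 and 5.84 against 8.84, 7.67 and 7.76 (1.96, SE 0.40, adjusted p = 0.0334). The gene rps15, of the chloroplast ribosome, stood at 5.56, 5.09 and 5.72 against 7.12, 6.24 and 6.85 (1.28, SE 0.28, adjusted p = 0.0446). In all 3 genes replicate 1 was the highest array and replicate 2 the lowest of the line. The psbT call was lost without wild type hypoxia replicate 2 (0.0701) or 3 (0.0781) or amiRAP2.2-12 hypoxia replicate 3 (0.0633). Those of petL and rps15 were lost under 7 and 15 of 26 alternatives. psaJ, of photosystem I, read 12.18, 12.21 and 12.23 in the line and 11.26, 11.38 and 11.53 in wild type (0.82, SE 0.19, adjusted p = 0.0540).

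In air, too, petL and psaJ had higher values in the line. There petL stood at 8.19 ± 0.37 against 6.25 ± 0.36 (SD, n = 3 each), a difference of 1.93 (SE 0.40, adjusted p = 0.128), and psaJ was higher by 1.13 (SE 0.19, adjusted p = 0.0807), neither past the threshold. The probe sets of psbA and rbcL had mean levels of 10.18 and 8.89 in wild type hypoxia. They did not differ past the threshold (0.17, SE 0.13 and 0.03, SE 0.28). Both were singled out after their values were seen, as was petG. The gene petG stood at 5.26 ± 0.32 in wild type and 7.65 ± 1.20 in the line (SD, n = 3 each; adjusted p = 0.194).

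**Figure D4:**
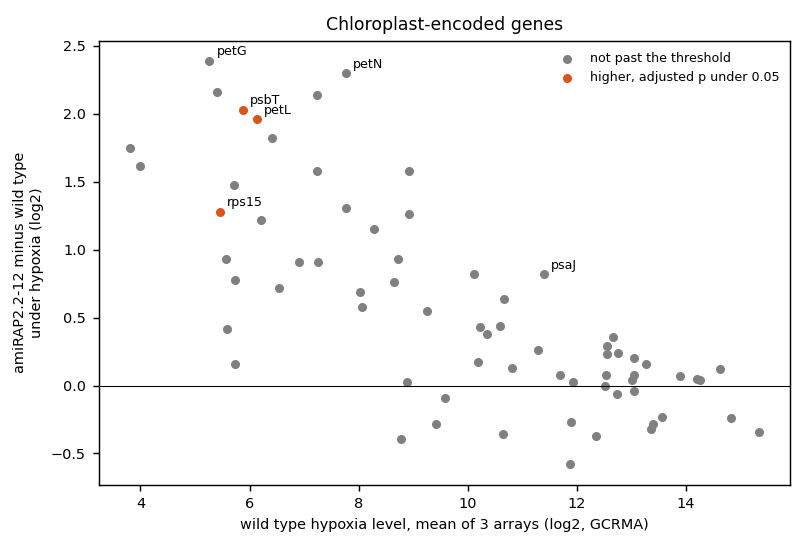
Difference between amiRAP2.2-12 and wild type under hypoxia (log2) against the mean wild type hypoxia level (log2, GCRMA, 3 arrays) for 69 chloroplast-encoded genes, with the 3 called genes in orange. The differences reach 2.39 among genes with low levels and lie between -0.58 and 0.82 at levels above 11.

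The wider set of genes that respond to hypoxia was drawn from the 6 HA-RAP2.12 arrays, so that none of the arrays compared took part in the choice. When the remaining 12 arrays were fitted, the 792 raised genes differed by a median of -0.12 (quartiles -0.54 and 0.24), and 471 of them (59.5%) were negative, against 40.8% of all probe sets. The share over all probe sets counts a difference of 0, as groups at the floor can give, as not negative, which limits it as a reference. Of them 23 were lower past the threshold (2.90%, against 0.440% of all in that fit) and 0 were higher (0.202% of all). The 648 lowered genes differed by a median of 0.24 (quartiles 0.03 and 0.48), 147 (22.7%) were negative, 21 were higher (3.24%) and 0 lower. The array medians of the raised set were -0.29, 0.16 and -0.23, so that replicate 2 lay above wild type where it lay far below for the low-oxygen genes. Those of the lowered set were 0.22, 0.25 and 0.28. Between air and hypoxia, the raised set changed by a median of 1.02 in wild type and 1.06 in amiRAP2.2-12, and the lowered set by -1.41 and -1.29.

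In air the line differed from wild type in 3 probe sets (0.0132%), and 0 of these were among the 323 called under hypoxia. Of the 24 largest rises and falls, 0 passed the threshold in air. Whether a difference was larger under hypoxia was tested by the difference between the hypoxia responses of the genotypes, for which 40 probe sets were called (0.176%), 35 of them also called under hypoxia. Among the 24 this test was passed by AT5G24240 (-2.74, SE 0.32, adjusted p = 0.0158), AT1G26390 (-2.56, SE 0.42, adjusted p = 0.0435) and AT3G04210 (2.58, SE 0.45, adjusted p = 0.0480). LHCB4.3 came close (1.55, SE 0.28, adjusted p = 0.0539). OSM34 had a difference of -5.29 under hypoxia and -3.13 in air, and the responses differed by -2.16 (SE 1.01, adjusted p = 0.534). For petL, with 1.96 and 1.93, they differed by 0.03 (SE 0.56). Of the 26 low-oxygen genes, 0 passed this test. The count of 40 was 0 without wild type air replicate 3, with 1839 probe sets at an unadjusted p under 0.05, and 394 without amiRAP2.2-12 hypoxia replicate 1. Without amiRAP2.2-12 air replicate 1, 2 or 3 it was 10, 18 and 326, and without wild type air replicate 1 or 2 it was 15 and 11. Among wild type hypoxia arrays, leaving out replicate 1 gave 26 and replicate 3 gave 22. It was 26 and 24 without HA-RAP2.12 air replicate 1 or 3, and 20, 22 and 22 without HA-RAP2.12 hypoxia replicate 1, 2 or 3.

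**Figure D5:**
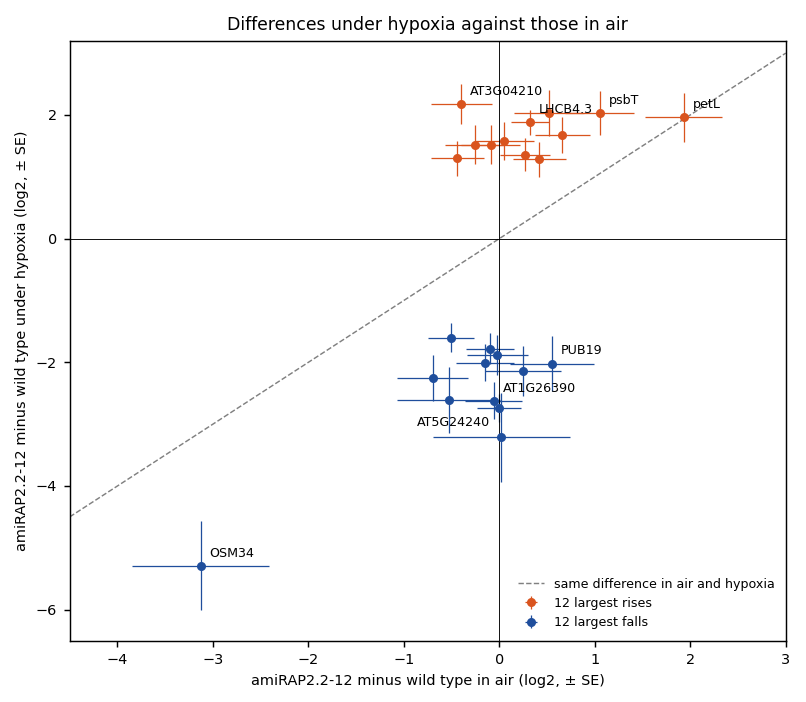
Difference between amiRAP2.2-12 and wild type under hypoxia (vertical, log2) against that in air (horizontal, log2) for the 12 largest rises (orange) and 12 largest falls (blue), with lines for ± SE and a dashed line where both would be equal. Most genes lie near 0 in air, while OSM34 (-3.13 in air), psbT (1.05) and petL (1.93) do not.

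The line HA-RAP2.12 was compared under hypoxia with the same 3 wild type arrays, so the values of the lines are given side by side only. In that comparison 1063 probe sets were called (4.67%), 476 higher (2.09%) and 587 lower (2.58%). Of the 12 largest falls in amiRAP2.2-12, 8 were lower in HA-RAP2.12 past the threshold, and of the 12 rises 6 were higher. OSM34 differed from wild type by -5.29 in amiRAP2.2-12 and by -3.25 (adjusted p = 0.0234) in HA-RAP2.12, AT1G53540 by -3.21 and -4.42 (adjusted p = 0.00542), LHCB4.3 by 1.88 and 2.33 (adjusted p = 0.000174) and AT3G04210 by 2.18 and 2.35 (adjusted p = 0.00210). PDC2 differed by -1.49 and -1.28 (adjusted p = 0.0295). AT1G74940 differed by -1.01 and -0.93 (adjusted p = 0.0145) and AT5G26200 by -2.61 and -1.96 (adjusted p = 0.0615). AT4G28140 differed by -2.01 in amiRAP2.2-12 and 0.05 in HA-RAP2.12 (adjusted p = 1.00), and RR16 by 1.36 and 0.13 (adjusted p = 1.00). Of the 26 low-oxygen genes, 5 were called in HA-RAP2.12, beside 4.67% of all probe sets. PDC2, AT1G74940, AT2G15880 (-1.26, adjusted p = 0.0253) and AT3G10020 (-0.36, adjusted p = 0.0344) were lower there. AT5G27760 was higher there (1.17, adjusted p = 0.00135). AT3G03270, a universal stress protein of the low-oxygen list, differed by -1.39 (adjusted p = 0.0697) in amiRAP2.2-12 and 0.43 (adjusted p = 0.646) in HA-RAP2.12. The median level of the low-oxygen genes was 10.35 to 10.63 on the HA-RAP2.12 hypoxia arrays, 10.89 to 11.03 on those of wild type and 10.96, 9.02 and 8.89 on those of amiRAP2.2-12.

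Defence and hormone lists held few calls. Of 5 measured defence and salicylic acid genes, 2 were lower, OSM34 and AT1G26390 as above, beside 0.813% of all probe sets, and the median was -1.35. GRX480, a glutaredoxin of salicylic acid signalling, read 8.14, 8.25 and 8.34 in wild type and 5.92, 7.58 and 7.17 in the line (-1.35, SE 0.54, adjusted p = 0.307), with replicate 1 the lowest here. Of 6 jasmonate genes, 0 passed. JRG21 stood at 6.04 ± 0.14 in wild type and 4.23 ± 0.21 in the line under hypoxia, and in air at 3.81, 3.42 and 3.78 in wild type and 8.98, 6.96 and 3.62 in the line. In air, replicates 1 and 2 of the line were above wild type and replicate 3 was within its range. Of 5 auxin genes, 0 passed, and IAGLU, an indole-3-acetate glucosyltransferase, differed by -0.77 (SE 0.25, adjusted p = 0.18) under hypoxia and by -0.75 in air.

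Other lists had 0 called members. The median differences were -0.32 over 3 rapid stress transcription factors, 0.20 over 3 abscisic acid and cold genes, 0.50 over 4 genes of mitochondrial dysfunction, -0.12 over 4 genes of dark and sugar starvation, 0.04 over 2 ethylene genes and 0.18 over 4 calmodulin-like genes. AT2G41730, of the mitochondrial dysfunction list, stood at 5.85 ± 0.11 in wild type and 6.87 ± 0.41 in the line (SD, n = 3 each; 1.02, SE 0.34, adjusted p = 0.198). NDB2, an alternative NADH dehydrogenase of mitochondria, stood at 6.12 ± 0.16 and 6.89 ± 0.77 (0.76, SE 0.29, adjusted p = 0.267). The clock gene GI differed by -0.02 (SE 0.10). DFR and UF3GT, of the anthocyanin list, were at the floor in both groups.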

How the data were processed

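Total RNA of whole rosettes was hybridised to 1-colour Affymetrix Arabidopsis Genome arrays, 18 arrays in 6 groups of 3. The deposited values are on the log2 scale, 1 per probe set and array, and were made by the authors with GCRMA (per the submitters' processing notes, without a version). GCRMA corrects the background, quantile-normalizes and summarises each probe set. Of all values, 35.4% lay under log2 2.5. After 64 controls were left out, 22746 probe sets were tested. The platform annotation named 1 gene for 13513 of them and several for 503, and did not list 8730 (38.4%). Current symbols were looked up in RefSeq genes (TAIR10.1) and found for 13436 probe sets.

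Group means of all 18 arrays were fitted with limma 3.58.1 in R 4.3.3 (lmFit, eBayes), without a replicate block or a filter on dim probe sets, and two-sided p-values were adjusted by Benjamini-Hochberg across the tested probe sets. The 6 groups share 1 estimate of the spread, although amiRAP2.2-12 hypoxia varied most. Genes named are the 12 largest rises and falls among called single-gene probe sets whose groups did not overlap, called low-oxygen genes, up to 4 members of each list with the smallest adjusted p, and HRA1, PDC2, AT4G10270 and OSM34. The other low-oxygen and chloroplast genes named were chosen after their values were seen. Of 307 loci on 28 lists, 100 were measured, and 6 lists had no measured member. Measured means here that the annotation named the locus as the single gene of a probe set. Other loci may have probe sets among those not listed or named for several genes. A list gene with several probe sets was represented by the brightest. The members and lists were chosen with earlier results of these data known. The fit was checked on simulated data in which all groups had the same spread for a probe set. That check does not cover the wider spread of amiRAP2.2-12 hypoxia. P-values measure only the spread between these samples, which may be technical, and 3 arrays a group limit the precision. The plots used matplotlib 3.10.9 under Python 3.11.15. The alternatives tried for normalization were a further quantile step and median centring. Those for the choice of probe sets were to keep values above log2 4 on 3 or more arrays, to drop 1061 probe sets with _s_at or _x_at names, and to average the probe sets of a gene. Those for the fit were the trend and robust options, arrayWeights, the compared arrays alone, the replicate block and each array left out in turn. Those for thresholds were a log2 change of 1 or more for calls and of 2 or more for the sets chosen in HA-RAP2.12.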

Additional observations from a re-analysis of the deposited data

Results flagged for a closer look

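The hypoxia response of 3 named genes differed between amiRAP2.2-12 and wild type by a test of the difference itself (the interaction term of the limma fit). Without wild type air replicate 3 this test called 0 probe sets, so all 3 calls were lost. AT5G24240 stood at the floor outside wild type hypoxia, so its SE and adjusted p rest largely on floor values. AT1G26390 stood at or near the floor there except on HA-RAP2.12 air replicate 1, at 3.69. Its SD was 0.69 in HA-RAP2.12 air and 0.57 in wild type hypoxia. In the other groups, which share the SE, it was 0 to 0.10 at or near the floor. The response of AT5G24240 was smaller by 2.74 in the line (-2.74, SE 0.32, adjusted p = 0.0158), because wild type rose to 4.85 ± 0.69 while all 3 arrays of the line stayed at 2.11 (SD, n = 3). That of AT1G26390 differed by -2.56 (SE 0.42, adjusted p = 0.0435), with 5.00 ± 0.57 in wild type hypoxia and 2.38 ± 0.10 in the line (SD, n = 3 each). That of AT3G04210 differed by 2.58 (SE 0.45, adjusted p = 0.0480), since wild type changed by -2.87 (SE 0.32) between air and hypoxia and the line by -0.29.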

How the results depend on the processing

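The count of called probe sets under hypoxia (323, of which 138 higher and 185 lower) was 516, 227 and 289 once dim probe sets were filtered out, 2400, 1214 and 1186 with arrayWeights, 10, 2 and 8 with only the 6 arrays compared, and 106, 40 and 66 at a log2 change of at least 1. The 40 calls of the difference between hypoxia responses became 63, 735, 8 (12 arrays) and 20. arrayWeights gave amiRAP2.2-12 hypoxia replicates 1, 2 and 3 weights of 0.446, 0.128 and 2.37. Leaving out single arrays gave 105 to 1021 called, 30 to 506 higher, 71 to 515 lower and 0 to 394 for the responses. Over the brighter probe sets, same-numbered arrays of the compared groups deviated from their group means with correlations of 0.038, -0.021 and 0.049. That does not settle whether the replicate numbers pair the samples, since the chloroplast-encoded medians ran in the same order in both groups. With the replicate block, 225 probe sets were called, 83 higher and 142 lower, and 15 for the responses. The share of calls that were higher, 42.7%, was 53.2% after centring, which moved the median of all probe sets by 0.04, and 20.0% with only the 6 arrays.

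The median of the low-oxygen genes stayed negative under each alternative, and over single arrays left out it ran from -1.87 without amiRAP2.2-12 hypoxia replicate 1 to -1.06 without its replicate 2. Their count of lower calls, 3, was 14 with dim probe sets filtered out, 21 with arrayWeights (1 higher), 5 after centring, 1 with the replicate block and 0 with only the 6 arrays. The median of the set lowered in HA-RAP2.12, 0.24, was 0.28 after centring, 0.39 with the set chosen at a log2 change of at least 2, and 0.21 to 0.28 when single arrays were left out. That of the raised set then ran from -0.26 to -0.03. Over 84 named genes and 26 alternatives, 168 calls were lost, 43 gained and 0 turned in direction. Promoter motifs were not analysed here. At 35.4% of values under log2 2.5, genes near the background had little room to fall.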

Other observations

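Some called genes outside the naming rule differed with little spread between the arrays of the line, and they are given after their values were seen. AT1G10020 stood at 7.11, 7.32 and 7.34 in wild type hypoxia and at 8.24, 8.21 and 8.08 in amiRAP2.2-12 (0.91, SE 0.07, adjusted p = 0.000219), with 9.80 ± 0.10 in wild type air and 7.12 ± 0.09 in HA-RAP2.12 hypoxia (SD, n = 3 each). AT1G73390 stood at 7.56, 7.34 and 7.49 against 6.31, 5.85 and 6.32 (-1.30, SE 0.12, adjusted p = 0.000415). The responses of both genes to hypoxia differed between the genotypes, by 0.85 (adjusted p = 0.0158) and -1.09 (adjusted p = 0.0367). UGT73B1, a glucosyltransferase, read 10.86, 11.13 and 10.93 against 9.94, 9.95 and 9.95 under hypoxia (-1.03, SE 0.17, adjusted p = 0.0148), and differed by -0.94 in air. AT2G41090 (CML10), a calmodulin-like gene, was higher by 1.27 under hypoxia (adjusted p = 0.00131). Hypoxia changed it from 13.12 to 12.22 in wild type and from 13.03 to 13.49 in the line.

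A strongly induced probe set that has no gene name here was also lower in the line, and it too was chosen after its values were seen. It stood at 2.85 in air in both genotypes, at 9.74, 9.64 and 9.81 in wild type hypoxia and at 7.94, 7.55 and 7.94 in amiRAP2.2-12 (-1.92, SE 0.17, adjusted p = 0.000367). Its response differed by -1.92 between the genotypes (SE 0.24, adjusted p = 0.0164). All 3 arrays of the line lay well below wild type and well above air.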
